A study of Mus musculus with 3 samples.

Results

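Genes of DNA replication, of the G1 phase and of mitosis were examined as 40 genes chosen by symbol from a list of cell-cycle genes, out of 55536 annotated genes in the gene tables. By role, 14 act in replication, 10 in G1 control and 16 in mitosis, and all 40 were found in the tables. The grouping used what the genes are known to do and no measured value. Each library was set against the other 2.

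The series holds 3 libraries of total RNA from the chromatin fraction of macrophages that were grown in culture from the bone marrow of C57BL/6J mice. All 3 belong to 1 group and carry the numbers of biological replicates 1, 2 and 3. Every culture received Lipid A, a bacterial ligand of Toll-like receptor 4, at 100 ng/ml for 12 h, had it washed out for 12 h, and received it again at 100 ng/ml for 40 min. Library preparation started from 1 µg of RNA in replicate 1, from 250 ng in replicate 2 and from 500 ng in replicate 3. Cells without Lipid A were not analysed here, so no value below describes an effect of the treatment. The labels give all 3 libraries the same strain-level donor and do not say whether they came from separate animals, so the spread between them may be technical in part. Age and sex were not collected by the submitters.

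A cell that divides first licenses its origins of replication in G1, when Cdc6 and Cdt1 help to load the ring of Mcm2 to Mcm7, the replicative helicase, onto DNA. Cyclin D with Cdk4 or Cdk6 and cyclin E with Cdk2 then inactivate the retinoblastoma protein and free E2F factors, which drive the genes of S phase, while Cdkn1a and Cdkn1b hold these kinases back. The genes of mitosis are switched on later, largely through a promoter element called CHR, and cell cycle arrest lowers both sets. Macrophages grown from marrow multiply in response to their growth factor and are known to leave the cycle when Toll-like receptor 4 is activated. RNA bound to chromatin is rich in transcripts that are still being made or spliced, so its level need not follow that of the finished mRNA.

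Promoters are shown by level, for the detected member of each role with the highest mean TPM whose window holds a motif, and for Mcm6. Windows from 250 bases before to 50 after the start came from RefSeq (GRCm38.p6) for 33 of the 40 members, and none is shown for Aurkb, Ccne2, Ccna2, Ccnd1, Ccnd2, Mcm4 and Gins2. Both strands were searched for E2F motifs (TTTCCCGC, TTTGGCGC, TTTCGCGC or TTTGCCGC), for the CHR element (TTTGAA or TTCGAA) and for CCAAT, and capitals mark the matches. Mki67 is the mitosis member with the highest level whose window holds a motif, and Mcm6, chosen after its values were seen, is a helicase subunit with the largest count among the 6. Their 250 upstream bases lie on the minus strand at chr7:135716380-135716629 and chr1:128359706-128359955, with no annotated exon inside.
Mki67: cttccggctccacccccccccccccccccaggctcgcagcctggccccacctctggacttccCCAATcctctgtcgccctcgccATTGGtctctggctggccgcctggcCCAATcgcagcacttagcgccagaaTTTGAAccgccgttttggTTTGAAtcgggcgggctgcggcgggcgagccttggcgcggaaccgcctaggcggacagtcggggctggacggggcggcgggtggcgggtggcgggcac
Mcm6: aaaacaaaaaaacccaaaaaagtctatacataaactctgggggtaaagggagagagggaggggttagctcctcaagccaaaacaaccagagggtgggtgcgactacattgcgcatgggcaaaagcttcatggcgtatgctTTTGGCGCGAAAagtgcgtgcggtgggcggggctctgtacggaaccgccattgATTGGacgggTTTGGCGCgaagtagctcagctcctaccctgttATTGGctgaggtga

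Pcna and Cdk2 hold the highest levels among replication and G1 members with a motif, Cdkn1a, Cdk6 and Cdk4 having none in their windows. For these 2 genes only the 30 bases around each match are shown. Parts of both windows are annotated as exons, of Pcna itself and of AV099323 and Pmel on the other strand. The Pcna stretch lies inside the annotated UTR of Pcna, and the Cdk2 E2F stretch lies partly inside that of Pmel. The Cdk2 CCAAT stretch lies outside these exons. The Pcna match lies at chr2:132253250-132253279, and those of Cdk2 at chr10:128705173-128705202 for E2F and chr10:128705079-128705108 for CCAAT, all on the minus strand.
Pcna CCAAT: accacgggtacgATTGGtccttgaggagag
Cdk2 E2F: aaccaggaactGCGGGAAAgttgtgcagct
Cdk2 CCAAT: tcgtgacgtgaaCCAATcggaagggcgggg

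An E2F motif was found for 6 of 12 replication members with a window, 1 of 7 in G1 control and 1 of 14 in mitosis, against 2.26% of all 32851 promoter windows. Those genes are Mcm3, Mcm5, Mcm6, Mcm7, Cdc6, Cdt1, Cdk2 and Cdk1. The CHR letters were found for 11 of 14 mitosis members, 3 of 12 replication members and 0 of 7 in G1 control, against 19.2% of all windows. CCAAT was found for 13 of 14 mitosis members, 9 of 12 replication members and 3 of 7 in G1 control, against 37.4%. Among the member windows, 1 pair of matches of different motifs shared a base, and 3 members have more than 1 window, which gives them more chances of a match. A match is only a description of letters in the window.

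Levels were compared between genes in TPM, which scales for length and library, as the mean ± SD of 3 libraries. Genes were called detected from a mean of 10 counts upwards. Of the 40 members 36 were detected, namely 14 of 14 in replication, 10 of 10 in G1 control and 12 of 16 in mitosis, beside 49.7% of all protein-coding genes. The undetected ones were Ccnb1, Ccnb2, Aurka and Cdc20. Median levels were 2.27 TPM for replication, 5.12 for G1 control and 1.04 for mitosis. Among the 22028 protein-coding genes, ranked by mean log2(TPM + 1), these medians lay at percentiles 61.8, 70.1 and 55.7. Among the 10958 detected protein-coding genes alone they lay at 23.4, 39.9 and 14.5, so most detected members belonged to the lower part of the transcribed genes. Only Cdkn1a, Mki67 and Cdk6 lay above percentile 90 of protein-coding genes.

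**Figure D1:**
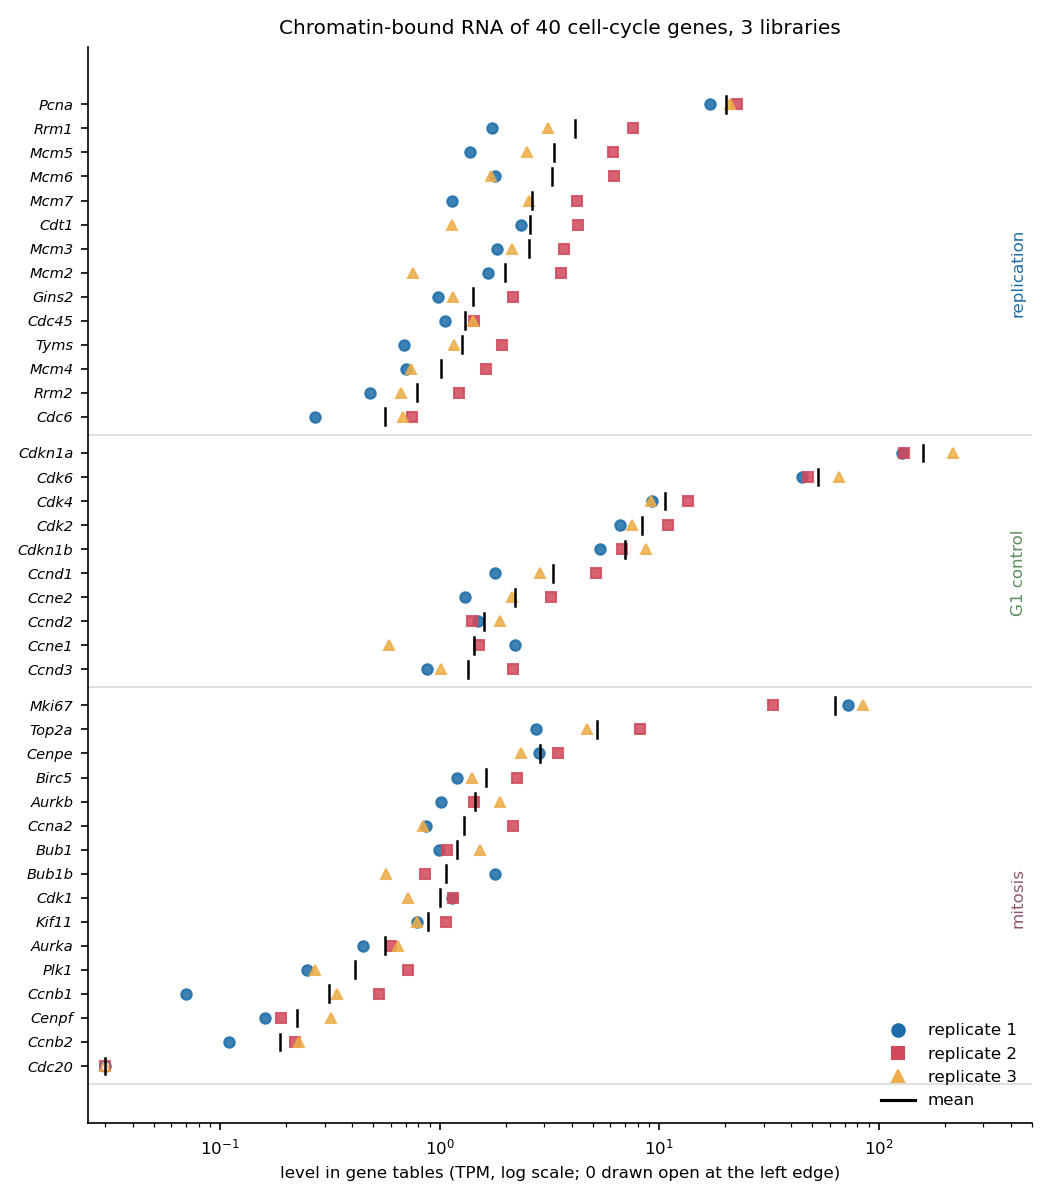
Level of each of the 40 members in TPM on a log axis, by library (blue circle replicate 1, red square replicate 2, yellow triangle replicate 3), with the mean as a black bar. Cdkn1a, Mki67 and Cdk6 stand above 50 TPM on average, the other replication and mitosis members except Pcna and Top2a average below 5, and the red squares lie to the right for every replication member, as for 60.6% of all detected genes in TPM.

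Counts were scaled to CPM with TMM library sizes to compare libraries, and each library was set against the mean of the other 2 on a log2 scale. The main difference was between replicate 2 and the others. The 14 replication genes had a median of 0.87 log2 units above the others in replicate 2, where all 14330 detected genes had a median of 0.02. The medians were 0.30 for G1 control and 0.23 for the 12 detected mitosis genes. Low counts moved with this difference, since protein-coding genes with a mean of 10 to under 100 counts, the range of 11 of the replication and 9 of the detected mitosis genes, also had a median of 0.23. Replication members were highest in replicate 2 for 11 of 14 genes, in G1 control for 5 of 10 and in mitosis for 7 of 12, against 39.3% of all detected genes. Of the 23 detected members with a mean under 100 counts 17 were highest there, and this share was 51.4% over 3952 protein-coding genes of the same range, a comparison added after the data were seen. None of these differences has a replicate check, since each library is 1 sample.

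The summed counts of Mcm2 to Mcm7 were 284, 716 and 290 in replicates 1, 2 and 3, which is 20.8, 38.8 and 18.7 CPM. Replicate 2 thus had 1.97 times the pooled level of the other 2 libraries, with an exact 95% interval of 1.76 to 2.20 that covers counting error only. Every one of the 6 subunits was highest in replicate 2. Mcm6 had 5.99, 12.7 and 4.84 CPM, a log2 difference of 1.23 for replicate 2. Mcm2, another subunit of the ring, had 3.14, 6.71 and 2.07 CPM, and its difference was 1.38. Both passed a chi-square test against counting error in rounded counts, with Benjamini-Hochberg adjustment over all detected genes (adjusted p = 4.13e-16 and 1.93e-10).

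Mcm4 had 2.41, 4.17 and 2.13 CPM (adjusted p = 0.00256). Mcm5 had 2.92, 5.47 and 3.03 CPM (adjusted p = 0.000440), and Mcm7 had 2.05, 4.17 and 2.52 CPM (adjusted p = 0.00284). In these 3 genes replicate 2 was high and the other 2 libraries were close. Mcm3, at 4.24, 5.52 and 4.13 CPM, was also highest in replicate 2 but did not pass the chi-square test (adjusted p = 0.17). Mcm7 shares 321 exon bases with Ap4m1 and 64 with Cops6, both on the opposite strand, and strand use in counting is not given in the sources used here. Without scaling for depth, Ap4m1 held 251.2, 468.9 and 335.9 counts and Cops6 28, 49 and 23, both highest in replicate 2 as Mcm7 was.

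Among the other licensing and helicase genes, Gins2, a subunit of the complex that activates the helicase, had 3.65, 5.74 and 3.49 CPM (adjusted p = 0.00552). It shares 2758 exon bases with Gse1 on the opposite strand, so its reads and those of Gse1 could not be told apart without strand. Cdt1, which loads the helicase, had 4.60, 6.01 and 2.07 CPM (adjusted p = 1.03e-06), low in replicate 3 as well as high in replicate 2. Cdc45, which joins Mcm and GINS in the active helicase, was level at 1.90, 1.95 and 2.07 CPM (adjusted p = 0.955), and it shares 209 exon bases with Ufd1 on the opposite strand. Cdc6, the other loader, rested on 14, 33 and 29 counts, or 1.02, 1.79 and 1.87 CPM, and did not pass the test (adjusted p = 0.197).

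Pcna, the sliding clamp that holds polymerases on DNA, had 13.0, 13.2 and 13.8 CPM, and at 20.3 ± 2.87 TPM (n = 3) was the replication gene with the highest level. Its 3 libraries did not differ beyond counting error (adjusted p = 0.864). Of the nucleotide supply genes Rrm1 and Tyms differed beyond counting error, while Rrm2 did not pass the test. Rrm1, the large subunit of ribonucleotide reductase, had 4.38, 9.53 and 6.65 CPM (adjusted p = 1.43e-06), and Tyms, which makes thymidylate, had 1.90, 4.22 and 2.45 CPM (adjusted p = 0.000822). Rrm2, the small subunit that is made in S phase, rested on 6, 25 and 14 counts, or 0.438, 1.35 and 0.904 CPM (adjusted p = 0.0542). All 3 were lowest in replicate 1 and highest in replicate 2 in these CPM values. In the reads tables Tyms had 9.003, 9.54 and 7.94 TPM, lowest in replicate 3. Transcript models not annotated as protein-coding held 100% of its counts in the gene tables and 25.4% in the reads tables.

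**Figure D2:**
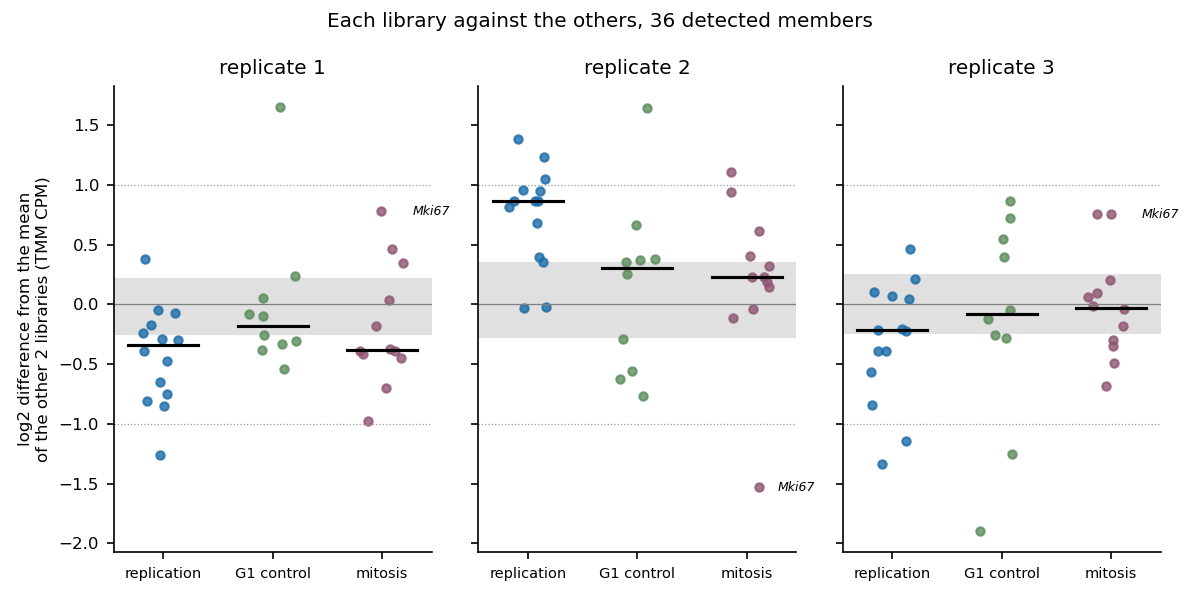
Log2 difference of each library from the mean of the other 2 (TMM-scaled CPM), 1 point for each of the 36 detected members, in columns by role. Black bars are medians, the grey band spans the lower to the upper quartile of all 14330 detected genes and dotted lines mark a fold of 2. In replicate 2 the replication median of 0.87 lies above the band, and Mki67 lies at -1.53.

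Cdkn1a, which encodes the kinase inhibitor p21 and is induced on cell cycle arrest, had the highest level of all members at 159 ± 51.0 TPM (n = 3). It had 182.5, 124.7 and 248.1 CPM (adjusted p = 1.48e-152). Cdk6, a kinase partner of the D cyclins, had 125.5, 111.6 and 215.1 CPM (adjusted p = 4.87e-146). Both were highest in replicate 3. Cdkn1b, which encodes the inhibitor p27, had 21.3, 21.1 and 31.0 CPM (adjusted p = 5.74e-09), again highest in replicate 3. On the CPM scale these 3 genes, Ccnd2 and Mki67 were lowest in replicate 2, which is 5 of 36 members against 36.7% of detected genes. In TPM of the gene tables Cdkn1a, Cdk6 and Cdkn1b were lowest in replicate 1, but in TPM of the reads tables in replicate 2. Cdkn1a had 126.4, 101.2 and 167.6 TPM in the reads tables, Cdk6 50.7, 39.17 and 62.43, and Cdkn1b 5.608, 4.894 and 6.795. The lowest library of these 3 genes thus turned with scale and source, while replicate 3 was highest in each. Cdkn1a shares 273 exon bases with a transcript on the opposite strand, annotated as still to be tested by experiment, that held 1217, 1432 and 2040 counts.

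Cdk4 had 9.57, 11.8 and 8.72 CPM (adjusted p = 0.0279), and shares 641 exon bases with Tspan31 on the opposite strand. Cdk2, the partner of cyclin E, had 16.7, 20.6 and 15.5 CPM (adjusted p = 0.00294). Both were highest in replicate 2 by less than the 2-fold threshold. In TPM, Cdk4 lay below Cdk6 by a log2 difference of -2.30 ± 0.51 (SD, n = 3, pseudocount 0.1), with the same sign in every library. Cdkn1a stood above Cdkn1b by 4.47 ± 0.20 log2 units, and by 4.47 ± 0.13 in tables that the submitters made from the reads.

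The D cyclins couple growth signals to the cycle. Ccnd1 had 5.48, 9.58 and 6.65 CPM (adjusted p = 0.000175), and Ccnd2 had 7.01, 4.71 and 7.56 CPM (adjusted p = 0.00494). Ccnd1 was thus highest and Ccnd2 lowest in replicate 2. Ccnd3 rested on 20, 70 and 15 counts, or 1.46, 3.79 and 0.969 CPM (adjusted p = 1.14e-07), with a log2 difference of 1.64 for replicate 2. For the E cyclins, which start S phase, Ccne2 had 3.73, 5.20 and 4.26 CPM (adjusted p = 0.193). Ccne1 rested on 20, 14 and 4 counts, or 1.46, 0.758 and 0.258 CPM (adjusted p = 0.0034), high in replicate 1 and low in replicate 3. Estimated counts for Ccne1 from the reads were 55, 66 and 43, not scaled for depth, from totals of 21006192, 30933004 and 28138628. In TPM Ccne1 had 2.20, 1.51 and 0.59 in the gene tables and 4.872, 5.495 and 4.67 in the reads tables. Its highest library in TPM thus turned with the source, while replicate 3 was lowest in both. Ccnd1 shares 1100 exon bases with LTO1, Ccne2 609 with Ints8 and Ccnd3 361 with Bysl, all on opposite strands. Without scaling for depth, LTO1 held 169.6, 317.1 and 219.4 counts, Ints8 723, 823.9 and 695.8, and Bysl 20.56, 28.88 and 20.59. The libraries of LTO1 had the same order as those of Ccnd1. Summed over G1 control the libraries had 374.7, 313.8 and 538.2 CPM, and without Cdk6 and Cdkn1a 66.7, 77.5 and 74.9 CPM.

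Mki67, which coats mitotic chromosomes and is used as a marker of proliferation, held 9936, 4615 and 11109 counts, which made up 60.7%, 35.9% and 53.1% of all counts of the 40 members. Its level was 63.3 ± 27.1 TPM (n = 3), and it had 726, 249.8 and 717.5 CPM. Replicates 1 and 3 were alike and replicate 2 was 1.53 log2 units below them, the reverse of the helicase genes. Without Mki67 the other 15 mitosis genes summed to 43.9, 49.8 and 42.8 CPM, and with it to 769.8, 299.6 and 760.2 CPM. The low value of replicate 2 in the mitosis sum therefore rested on Mki67.

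**Figure D3:**
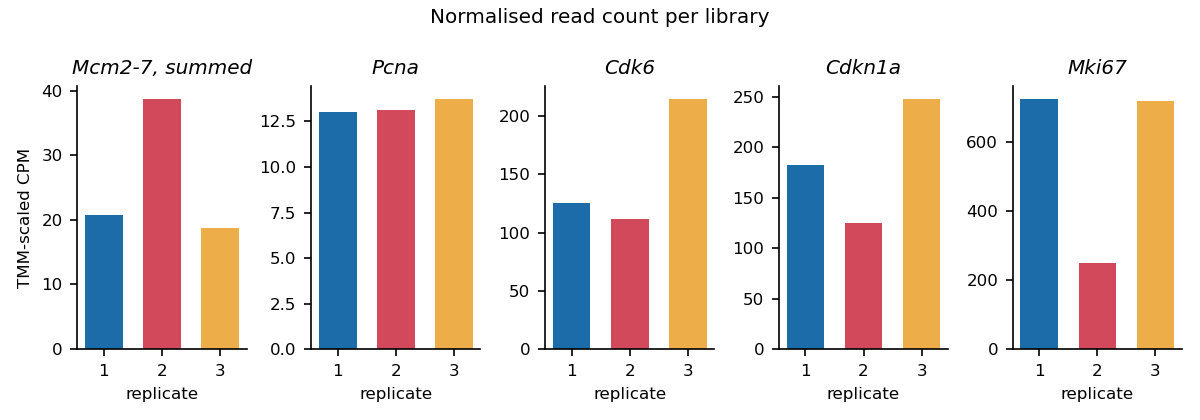
Normalised read count (TMM-scaled CPM, each panel with its own axis from 0) per library for the sum of Mcm2 to Mcm7 and for 4 single genes, 1 bar per library. Replicate 2 is high for the helicase genes (38.8 CPM) and low for Mki67 (249.8 CPM), while Pcna is level and Cdk6 and Cdkn1a are high in replicate 3.

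Of the 12 detected mitosis genes 9 had a mean under 100 counts, and Mki67, Cenpe and Top2a had more. Top2a, the topoisomerase that untangles chromosomes, had 10.4, 14.99 and 12.3 CPM (adjusted p = 0.00303), and Mki67 stood 3.60 ± 1.42 log2 units above it in TPM. Cenpe, a kinetochore motor, had 19.6, 16.4 and 14.5 CPM (adjusted p = 0.00832), highest in replicate 1. Ccna2, the cyclin of S phase and early mitosis, had 1.31, 2.54 and 1.29 CPM (adjusted p = 0.016), highest in replicate 2. It shares 510 exon bases with Exosc9 on the opposite strand, which held 108.8, 197.3 and 102.8 counts and was highest in replicate 2 too. These 3 and Mki67 were the 4 of 12 detected mitosis genes that passed the test.

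Kif11, the motor that separates spindle poles, had 3.29, 3.46 and 2.97 CPM (adjusted p = 0.773). Birc5, a subunit of the chromosomal passenger complex, had 2.26, 3.14 and 2.78 CPM (adjusted p = 0.416). Neither differed between libraries beyond counting error. The checkpoint kinase Bub1 rested on 18, 32 and 27 counts and its relative Bub1b on 31, 32 and 24 counts, neither passing the test (adjusted p = 0.648 and 0.415). Cenpf, which joins the outer kinetochore, rested on 12, 29 and 31 counts (adjusted p = 0.0779). Cenpe stood above Cenpf by 3.22 ± 0.59 log2 units in TPM.

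The remaining mitosis genes rested on few counts in the gene tables. Cdk1, the mitotic kinase, had 9, 23 and 15 counts (adjusted p = 0.327), and Plk1, a kinase of mitotic entry, had 7, 20 and 7 counts (adjusted p = 0.0912). Aurkb, the kinase of the passenger complex, had 9, 15 and 11 counts (adjusted p = 0.895). Their intervals are wide at this depth, and a missed threshold does not show that the libraries were alike. Aurka, the spindle pole kinase, had 8, 7 and 14 counts. Ccnb1 had 1, 8 and 4 counts and Ccnb2 2, 4 and 4, both being cyclin partners of Cdk1. Cdc20, which activates the anaphase-promoting complex, had 0 counts in all 3 libraries, for which the upper limit of 3 counts corresponds to 0.219, 0.162 and 0.194 CPM.

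Over all 36 detected members, 22 varied between libraries beyond counting error, against 54.9% of all detected genes. Among the 23 with a mean under 100 counts it was 10, against 33.4% of protein-coding genes in that range. By role these were 9 of 14 in replication, 9 of 10 in G1 control and 4 of 12 in mitosis. Without replicate 2 the count was 8, but the matching share of all detected genes was not taken. What the drop owes to replicate 2 itself was not tested. Variation was also set against the trend that edgeR fits over genes of like abundance. It lay above the trend for 20 of 36 members, against 28.8% of all detected genes, with 10 of 14 in replication, 6 of 10 in G1 control and 4 of 12 in mitosis.

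A difference of at least 2-fold above the other libraries was found in replicate 2 for Mcm2, Mcm6, Rrm2, Ccnd3 and Plk1, which is 5 of 36 members against 3.66% of all detected genes. The same share was 7.46% over protein-coding genes with a mean of 10 to under 100 counts, the range of 4 of these 5 genes. Mki67 was the only member at least 2-fold lower there, against 3.91% of detected genes. In replicate 1 only Ccne1 was 2-fold higher and only Rrm2 2-fold lower, against 2.27% and 2.28%. Both genes lie in that low-count range, where these shares were 2.91% and 4.2%. In replicate 3 no member was 2-fold higher, against 2.47%, and Mcm2, Cdt1, Ccnd3 and Ccne1 were 2-fold lower, against 2.49%. All 4 had a mean under 100 counts, and the share 2-fold lower was 5.09% over protein-coding genes of the low-count range. Total count scaling, which moved the median of all detected genes in replicate 2 to 0.17 log2 units, raised the count of 5 to 11.

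In TPM the median of all detected genes in replicate 2 was 0.32 log2 units above the other libraries. Relative to that median the replication genes lay 0.72 higher in TPM and 0.85 higher in CPM, and all 14 were highest in replicate 2 in TPM, where 60.6% of all detected genes were too. The corresponding values for G1 control were 0.12 and 0.29 and for mitosis 0.03 and 0.21. Mki67 remained lowest in replicate 2 on both scales, with log2 differences of -1.25 in TPM and -1.53 in CPM.

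Replicate 2 also differed in preparation and depth. It had the smallest RNA input, 250 ng, the most counts, 17187524 in annotated genes against 13802716 and 16502809, and the most genes with at least 10 counts, 14841 against 13882 and 14187. Mitochondrially encoded genes had 495, 284 and 414 CPM, and ribosomal protein genes 940, 949 and 932 CPM. The part of these differences in the order of the members was not tested, and with 1 library at each input, input and culture cannot be told apart. Nor can fewer dividing cells be told from less RNA per cell in bulk libraries.

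Markers of the labelled cell type were present, with 8 of 8 macrophage genes detected and 2359, 2003 and 1875 CPM in sum, led by Adgre1 at 368 ± 35.6 TPM. Neutrophil markers were detected for 0 of 8, with sums of 0.365, 0.812 and 0.194 CPM, Ngp highest with 1, 13 and 2 counts and Ly6g at 0. For T cells 0 of 6 and for B cells 0 of 6 were detected, with sums of 0.108 to 0.219 and 0.325 to 0.438 CPM, and with Lck highest at 2, 0 and 1 counts and Ms4a1 at 3, 4 and 3. Among fibroblast markers only collagen genes were detected, 3 of 6, and the list summed to 0.0731, 4.01 and 5.62 CPM, with Col3a1 highest in TPM at 0, 20 and 23 counts. Erythroid markers had 1 of 6 detected, Alas2, and sums of 2.56, 2.81 and 1.23 CPM. Their part in the member values was not tested.

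A broader set of 138 genes in 10 lists, none of them members, gives the rest of the pathway. Of these 120 were detected, 69 varied beyond counting error, beside 54.9% of all detected genes, and 60 were highest in replicate 2, beside 39.3%. The last share was 51.4% over protein-coding genes with a mean of 10 to under 100 counts, and the listed genes were not split by count. The median difference of replicate 2 over these 120 genes was 0.23 log2 units, beside 0.37 over all 36 detected members and 0.87 over the replication members alone. By list it ran from -0.028 for condensin and cohesin to 0.40 for spindle and cytokinesis. It was 0.35 for origin recognition and firing and 0.38 for DNA polymerases and fork proteins. At least 2-fold differences above the other libraries were found for 1 gene in replicate 1, 3 in replicate 2 and 3 in replicate 3, and below them for 3, 1 and 2 genes.

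Origin recognition and firing genes were detected for 15 of 15, and 7 passed the test. Orc3 and Orc4, subunits of the origin recognition complex, had 50.7 ± 8.62 and 44.8 ± 8.49 TPM, and Topbp1, an activator of origins, had 24.9 ± 7.002 TPM. These levels were above those of every Mcm gene. Of the DNA polymerase and fork genes 21 of 25 were detected and 12 passed, led by Rfc2 with 72.1 ± 10.3, Pold3 with 46.3 ± 1.21 and Rfc1 with 19.5 ± 1.72 TPM, while Pold2 was undetected. Nucleotide metabolism had 5 of 7 detected, all passing. Samhd1, which degrades deoxynucleotides, had 591 ± 38.8 TPM, far above Tk1 with 31.3 ± 7.66, Dck with 8.26 ± 2.22, Rrm1 with 4.16 ± 3.08 and Rrm2 with 0.793 ± 0.390 TPM, and Dut was undetected.

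E2F and pocket protein genes were detected for 13 of 13 and 7 passed. Rb1, the retinoblastoma protein that restrains E2F, had 57.0 ± 5.93 TPM, and its relatives Rbl1 and Rbl2 had 18.7 ± 2.75 and 18.0 ± 2.46 TPM. Of 10 other CDK inhibitor and CDK phosphatase genes only 4 were detected and 2 passed, with Pkmyt1, a kinase that inhibits Cdk1, highest at 3.85 ± 0.787 TPM, Cdc25b at 1.52 ± 0.789 and Cdkn1c undetected. Cdc25a, the phosphatase that activates Cdk2, had 2.63, 5.90 and 2.13 CPM (adjusted p = 2.56e-08), high in replicate 2 as the helicase genes were.

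Mitotic transcription factor genes were detected for 6 of 6 and 3 passed, with Lin37, Lin9 and Lin54, subunits of the complexes that bind CHR, at 10.8 ± 2.85, 6.56 ± 0.742 and 5.19 ± 1.60 TPM. Kinetochore and checkpoint genes had 15 of 17 detected and 7 passing, and Zwint and Cenpc1 had 29.01 ± 3.39 and 15.04 ± 2.97 TPM. Mad2l1, the spindle checkpoint protein, had 30.7, 13.9 and 45.9 CPM (adjusted p = 5.68e-64). It was the single listed gene outside the members at least 2-fold lower in replicate 2, where Mki67 was low too, while Spc24 was undetected. Spindle and cytokinesis genes had 13 of 16 detected and 7 passing, with Kif15, Kif22 and Kif23 at 6.94 ± 2.99, 3.39 ± 1.52 and 3.36 ± 1.25 TPM and Kif2c undetected at 0.167 TPM. In the reads tables, however, Kif23 had 91.1 TPM, Kif2c 5.66 TPM and the kinetochore genes Spc24 and Cenpc1 6.47 and 59.03 TPM. Their levels thus depended on the source, and Cenpc1 stood above Zwint, at 27.6 TPM, in the reads tables only.

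Condensin and cohesin genes, many of which also act outside mitosis, were detected for 15 of 15 and 11 passed. Stag1, Stag2 and Smc1a had 65.2 ± 6.58, 39.7 ± 7.42 and 30.02 ± 5.87 TPM. Anaphase-promoting complex genes had 13 of 14 detected and 8 passing, with Anapc1, Anapc5 and Anapc4 at 81.7 ± 9.48, 52.2 ± 7.28 and 23.7 ± 6.36 TPM. Ube2c, its partner enzyme, was undetected at 0.063 TPM in the gene tables but had 7.96 TPM in the reads tables.

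The submitters deposited a second quantification, made from the reads against transcripts without the alignment. In it 39 of 40 members were detected, with Cdc20 the exception. Its mean TPM was at least 2-fold above that of the gene tables for 9 of the 36 detected members, against 20% of detected protein-coding genes. Cdk1 had 1.00 ± 0.245 TPM in the gene tables and 13.1 in the reads tables, and Tyms 1.26 ± 0.626 and 8.83. Ccnd2, Birc5, Ccne1, Rrm1, Ccne2, Cenpf and Kif11 were the others.

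Most of the gap sat in 1 transcript per gene. For Cdk1 a protein-coding model of 695 bases held 0 counts in the alignment tables and 128 in the reads tables. For Tyms a protein-coding model of 3163 bases held 0 and 404 counts. For Birc5 a model of 3334 bases held 36.4 and 455 counts, and for Ccnd2 one of 6330 bases held 60.04 and 452. The order of some pairs turned with the source of the values. Cdk2 stood above Cdk1 by 2.94 ± 0.43 log2 units in the gene tables and below it by a difference of -0.86 ± 0.37 in the reads tables. Ccnd1 stood above Ccnd2 by 0.88 ± 0.83 in the first and had a difference of -1.17 ± 1.07 in the second.

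**Figure D4:**
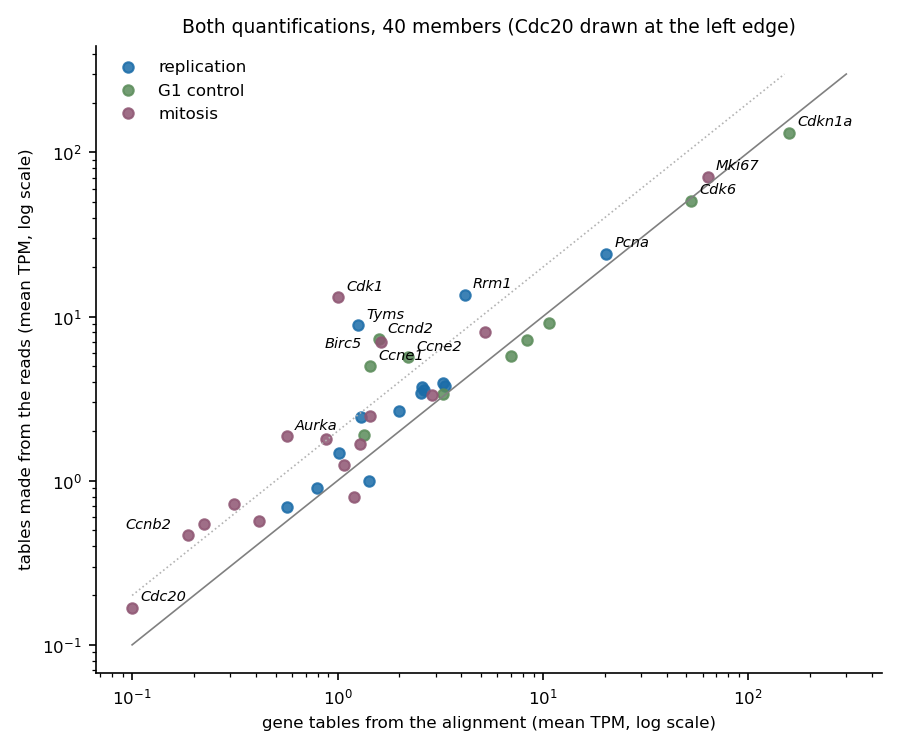
Mean TPM of the 40 members in the gene tables (x axis) and in the tables made from the reads (y axis), both log scales, with colours by role. The solid line marks equal values and the dotted line a 2-fold higher value from the reads. Cdk1, Tyms, Ccnd2 and Birc5 stand farthest above it, and Mki67, Cdk6, Cdkn1a and Pcna lie near the solid line.

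Some pairs kept their order in every library of both sources. Rrm1 stood above Rrm2 by 2.09 ± 0.44 log2 units in the gene tables, and Cdt1 above Cdc6, with a difference of Cdc6 minus Cdt1 of -1.92 ± 1.10. Ccnd3 stood below Ccnd1, at -1.20 ± 0.23. Aurka stood below Aurkb in every library of the gene tables, at -1.18 ± 0.19, but in the reads tables the difference was -0.40 ± 0.35 and Aurka was higher in 1 library. The differences of Ccne2 from Ccne1 (0.67 ± 1.25), Bub1 from Bub1b (0.26 ± 1.04) and Ccnb1 from Ccnb2 (0.36 ± 0.64) were smaller than their SD, and in the reads tables that of Bub1 from Bub1b was -0.37 ± 1.36.

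Chromatin RNA includes transcripts that keep introns, and the annotation lists such retained-intron models for 28 of the 36 detected members. Their share of a gene's counts had a median of 17.6% over these 28 members and 25.4% over 6716 detected protein-coding genes with such models. It was at least 20% for 12 of 28 members, against 57.7%. Among the highest shares were 89.8% ± 12.9 for Cdt1, 67.7% ± 1.09 for Cdk4, 62.6% ± 4.59 for Cdk2, 51.9% ± 0.183 for Ccnd3 and 46.6% ± 2.02 for Pcna. Those of Cdk4, Cdk2, Ccnd3 and Pcna were close in all 3 libraries of the gene tables, though that of Ccnd3 rested on 20, 70 and 15 counts. Their means were near these in the reads tables, at 66.3% ± 6.49, 65.2% ± 6.03, 54.7% ± 8.36 and 50.4% ± 2.06. The spread between libraries was wider there for Cdk4, Cdk2 and Ccnd3. By contrast Mcm6 had 1.19% ± 1.09, Cenpe 0.883% ± 0.3497 and Cdk6 5.32% ± 0.279. For Tyms the share was 64.8% in the gene tables and 10.1% in the reads tables, and for Rrm1 it was 25.8% and 82.2%, so the share of these genes depended on the source. Mki67, Cdkn1a and Cdkn1b have no such model in this annotation, and nothing about their introns follows from that.

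**Figure D5:**
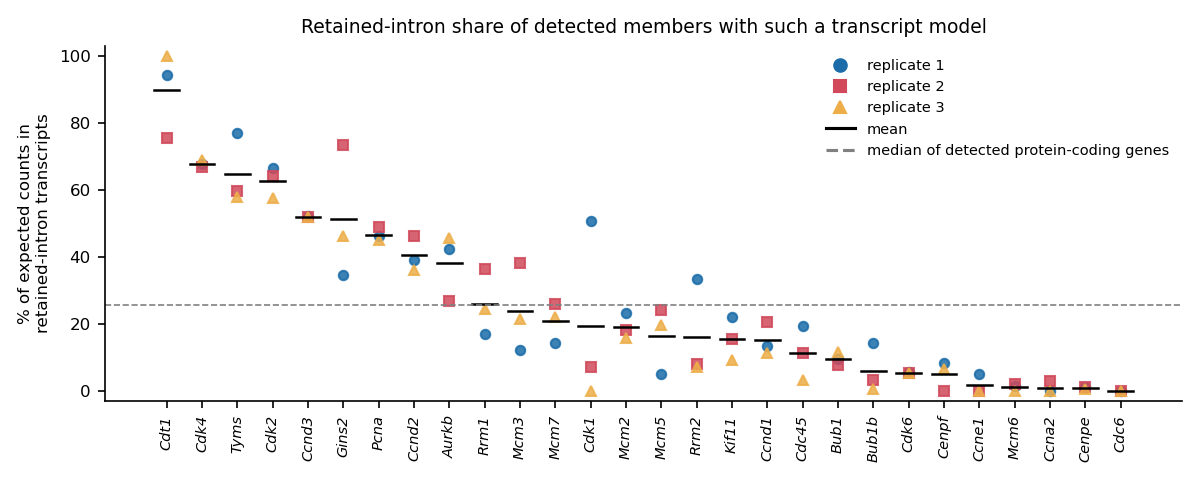
Percent of a gene's expected counts in transcripts annotated as retained intron, for the 28 detected members that have such a model, ordered by the mean (black bar), with 1 symbol per library. The dashed line is the median of 25.4% over detected protein-coding genes. Cdt1, Cdk4, Tyms and Cdk2 lie above 60%, and the symbols of Cdk4, Ccnd3 and Pcna nearly coincide.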

How the data were processed

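Total RNA-seq of chromatin-bound RNA was used from 3 libraries of 1 group. The authors deposited gene and transcript tables with expected counts and TPM from an alignment to mm10 with GENCODE M21, and transcript tables with estimated counts and TPM made from the reads, per the file headers and labels. Program names, versions, strand use and read filters: not given in the sources used here. By library there were 13802716, 17187524 and 16502809 expected counts in annotated genes. Rows that name no gene (1.13%, 0.324% and 0.279% of counts) were left out. Intervals and the limit of 3 counts cover counting error only, since without molecular identifiers the reads are not independent molecules.

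Expected counts were rounded. Library sizes came from edgeR 4.0.16 (TMM), with DESeq2 1.42.0 size factors and total counts as alternatives, in R 4.3.3. Log2 CPM used a prior count of 0.5. Genes from a mean of 10 counts upwards entered a chi-square test against Poisson sampling, adjusted by Benjamini-Hochberg over 14330 genes at 0.05. It was tested on counts simulated by Poisson sampling, which is the model that the test assumes. That simulation cannot show how the test behaves on rounded expected counts or on libraries that vary beyond counting error. With 1 group there was no contrast. The p-values measure only how far the counts of these samples depart from counting error, and at the same fold they fall as counts rise. edgeR dispersions came from an intercept-only fit. Python 3.11.15 with scipy 1.17.1 ran the rest. The members, lists and tests were chosen with earlier results of these data known. The text names every member, of each pathway list the 3 genes with the highest mean TPM and the first undetected one, of each marker list the highest and Ly6g, and promoters by level. Cdc25a and Mad2l1 fall under that rule, while Mcm6's promoter was added.

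Alternatives were other minimum counts, prior counts, pseudocounts, scalings, no filter, the reads tables, and leaving out each library. Total RNA levels of untreated cells were not analysed here.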

Additional observations from a re-analysis of the deposited data

How the results depend on the processing

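No paired analysis was possible because all libraries belong to 1 group. Detected members stayed within 1.5 times of 36 under every alternative run. The replication difference of replicate 2, 0.87 as reported, ran from 0.71 without replicate 1 to 1.05 with TPM in place of CPM. Members beyond counting error numbered 8 to 19 when 1 library was left out, the 8 being without replicate 2. The matching shares of all detected genes were not taken. With TPM in place of CPM, the G1 control difference of replicate 1 was -0.43 and the mitosis difference of replicate 3 was -0.21. Counts made from the reads gave -0.11 for mitosis in replicate 1, 0 members 2-fold higher in replicate 1, 1 higher in replicate 3 and 2 lower in replicate 3. Total count scaling gave mitosis differences of 0.38 in replicate 2 and -0.17 in replicate 3, and 11 members 2-fold higher in replicate 2, while a prior count of 2 gave 3. With no filter 2 members were 2-fold lower in replicate 1.

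Against the single remaining library, the G1 control difference ran from -0.34 to 0.15 in replicate 3. The mitosis difference ran from -0.42 to -0.040 in replicate 1, from 0.17 to 0.42 in replicate 2 and from -0.17 to 0.040 in replicate 3. Members 2-fold higher ran from 1 to 2, 5 to 8 and 1 to 2 in replicates 1, 2 and 3, and members 2-fold lower from 1 to 8, 1 to 2 and 2 to 5. The lone library is 1 sample, so these are values with no test.

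Median percentiles from the reads were 57.95, 66.95 and 50.16 for replication, G1 control and mitosis. In the gene tables they were 23.35, 39.89 and 14.49 among detected genes alone. In CPM the G1 control percentile was 71.43. In TPM it ran from 69.39 to 70.92 with 1 library left out. From the reads, Ccnd1 minus Ccnd2 reversed to -1.17 and Cdk2 minus Cdk1 to -0.86. Apart from the smaller number of libraries or genes in some settings, the cause of these changes was not tested. Genes with under about 20 counts have wide counting intervals here.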
